A study of Mus musculus with 4 samples.

Results

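The genes described here encode the L-type lectin cargo receptors of the early secretory pathway, Lman1l, Lman1, Lman2 and Lman2l, and the LMAN1 partner protein gene Mcfd2. They were taken by gene name, and all 5 names are rows of the deposited table, which holds 23242 rows. The family was selected on the FPKM values of these same 4 libraries, in which Lman1l was already known to differ between the genotypes. The levels of the 5 genes and their differences between genotypes are therefore given as a description, with no test.

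RNA was sequenced from prostate tissue of 4 mice of the FVB strain, labelled as ventral dorsal lobes. The control group was 2 mice of wild-type genotype and negative ERG status (mice 27 and 28). The other group was 2 mice homozygous for TMPRSS2:ERG and of positive ERG status (mice 26 and 29). The transgene is a bacterial artificial chromosome carrying the TMPRSS2 locus, into which a cassette of GFP flanked by loxP sites and followed by human ERG exons was placed. Cre protein was then injected at the pronuclear stage into 1 line with high GFP. The homozygotes come from 1 sub-line, so an effect of ERG cannot be told apart from an effect of where the transgene inserted. The labels used here state neither the ages of the mice nor shared litters. Each library is a different mouse, so spread within a genotype is spread between 2 animals. Values are printed in the order of mice 27 and 28 for the wild types and mice 26 and 29 for the homozygotes.

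Newly made glycoproteins leave the endoplasmic reticulum (ER) in vesicles coated with COPII, and some need a transmembrane receptor to be packed into them. LMAN1, also called ERGIC-53, is such a receptor. It binds mannose-rich sugar chains in the ER, cycles through the intermediate compartment before the Golgi, and works with the soluble calcium-binding protein MCFD2. Together they carry coagulation factors V and VIII, and inherited loss of either protein lowers both factors in blood. LMAN2 (VIP36) and LMAN2L (VIPL) are relatives that cycle between the ER and Golgi or stay mainly in the ER. LMAN1L is the closest relative of LMAN1, and in humans its transcript is known from the prostate among few other tissues. Glandular prostate epithelium secretes large amounts of glycoprotein.

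The sequences before the transcription start sites are shown because that of Lman1l differs in its letters from those of its relatives. RefSeq (GRCm38.p6, the reference strain C57BL/6J and not FVB) gave a start-site window for 4 of the 5 genes, Lman1l, Lman2, Lman2l and Mcfd2. Each line holds the 250 bases before the start, 5′ to 3′ on the minus strand, on which all 4 genes lie. Capitals mark every CG dinucleotide, and in the Lman1l window, which holds no CG, they mark the matches to AGAACA, a hexamer bound by the androgen receptor.
Lman1l, chr9:57620775-57621024: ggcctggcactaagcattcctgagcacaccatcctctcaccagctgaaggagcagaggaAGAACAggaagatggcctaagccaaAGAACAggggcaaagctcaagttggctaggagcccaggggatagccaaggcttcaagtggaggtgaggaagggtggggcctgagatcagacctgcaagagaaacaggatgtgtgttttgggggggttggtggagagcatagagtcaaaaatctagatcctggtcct
Lman2, chr13:55362784-55363033: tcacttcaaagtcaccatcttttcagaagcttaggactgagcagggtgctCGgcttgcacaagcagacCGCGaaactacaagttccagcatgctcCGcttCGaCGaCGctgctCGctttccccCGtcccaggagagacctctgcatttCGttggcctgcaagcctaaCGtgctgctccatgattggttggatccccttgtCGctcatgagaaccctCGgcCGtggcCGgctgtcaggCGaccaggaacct
Lman2l, chr1:36445272-36445521: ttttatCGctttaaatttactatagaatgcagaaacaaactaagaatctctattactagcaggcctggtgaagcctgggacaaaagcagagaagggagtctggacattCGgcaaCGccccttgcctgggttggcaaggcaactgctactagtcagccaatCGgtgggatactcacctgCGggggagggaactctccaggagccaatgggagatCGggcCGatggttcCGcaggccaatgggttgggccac
Mcfd2, chr17:87265948-87266197: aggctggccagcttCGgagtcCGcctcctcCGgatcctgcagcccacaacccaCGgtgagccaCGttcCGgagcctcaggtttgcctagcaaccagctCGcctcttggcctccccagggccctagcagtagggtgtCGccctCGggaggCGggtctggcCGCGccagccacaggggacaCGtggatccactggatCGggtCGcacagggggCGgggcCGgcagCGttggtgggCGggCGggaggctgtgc

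The Lman1l window held 0 CG dinucleotides. The windows of Lman2l, Lman2 and Mcfd2 held 8, 16 and 20, and the median over 32851 RefSeq windows of the same length was 6. Of these windows, 57.0%, 74.6% and 82.1% held fewer than Lman2l, Lman2 and Mcfd2. The share that held 0, as Lman1l did, was not counted. Base composition alone differed less, with 54.0% G and C for Lman1l, 52.8% for Lman2l, 57.6% for Lman2 and 71.2% for Mcfd2.

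Motifs were searched on both strands. The core of the sites bound by ETS factors such as ERG, GGAA, was found 4 times before Lman1l, 3 times before Lman2, 2 times before Lman2l and 1 time before Mcfd2. This core is short, and 93.4% of all windows hold it, with a median of 3 matches. The longer CCGGAA, held by 12% of windows and containing GGAA, was found only before Mcfd2 among the 4. AGAACA was found 2 times before Lman1l and in none of the windows of Lman2, Lman2l and Mcfd2. It is held by 16.1% of windows, and 1.81% hold it at least 2 times. Of the motifs of the ER stress response, the short CCACG was found 1 time before Lman2 and 3 times before Mcfd2 but in neither Lman1l nor Lman2l (28.3% of windows hold it). The full ER stress response element, which contains CCACG and is held by 0.113% of windows, was in none of the 4. These matches describe letters in a window and were not tested as sites.

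Depth and tissue set the frame for all values below. Expression is in FPKM (sequenced fragments relative to transcript length and library size), divided by a scaling factor per library and called scaled FPKM. Fragment totals are not given, and a single fragment on a transcript of 1 kb was estimated, from the lowest values deposited, to be worth 0.0192 to 0.0221 FPKM. Log2 differences are homozygote minus wild type on log2(scaled FPKM + 1), with the standard error (SE) of the limma fit over 11762 genes. Of these genes 900 passed an adjusted p of 0.05, a share of 7.65% (4.65% higher and 3.00% lower in homozygotes). An unadjusted p under 0.05 was reached by 11.0% on the higher and 10% on the lower side. These shares are the background for the counts of calls in the lists below. Leaving out wild type 27 or 28 gave 2062 or 1755 calls, and leaving out homozygote 26 or 29 gave 384 or 480. Rises made up 60.8% of the calls, 73.0% with unscaled FPKM, 71.4% with no filter on low values and 49.1% without mouse 27. Mouse Erg was near 1 scaled FPKM in all libraries (0.881 to 1.12) and does not check the labels, since the cassette is human and its transcripts were not analysed here. Mouse Tmprss2 fell from 74.2 and 78.7 to 42.3 and 47.9 scaled FPKM (log2 difference -0.75, SE 0.118, limma adjusted p = 0.0209). The androgen-driven prostate secretory gene Pbsn was abundant in all 4 libraries, between 9477 and 14385 scaled FPKM.

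Lman1l was close to silent in the wild types and among the most abundant transcripts of the homozygotes. Lman1l (Entrez 235416, mm10 chromosome 9, 57607033 to 57620774, minus strand, 13 exons) had 0.900 and 0.777 scaled FPKM in the wild types and 272 and 284 in the homozygotes. Both homozygotes stood far above both wild types, and animals of the same genotype lay close together. In such bulk tissue, more cells of a type and more RNA per cell cannot be told apart. The wild-type mean was 0.838 ± 0.0872 (SD, n = 2), the homozygote mean was 278 ± 8.87 (SD, n = 2), and their ratio was 332. The ratio ran from 302 for the closest pair of libraries of different genotype to 366 for the farthest. On the log2 scale the difference was 7.25 (SE 0.103), and only 1 tested gene had a larger positive difference. With a pseudocount of 0.1 in place of 1 it was 8.21, because the added 1 exceeds the wild-type level.

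Among the 11762 tested genes Lman1l ranked 11659 from the top by its wild-type mean and 216 by its homozygote mean. Lman1l passed the filter on low values only through the homozygotes. Its place near the bottom by wild-type mean follows in part from that filter, which removed most genes with levels as low. Of all 23242 rows, 11547 and 11858 had 1 FPKM or more in mice 27 and 28. At the estimated depths, and with the length of its coding transcript (1685 bases), the wild-type values stand for about 63 and 61 fragments and those of mice 26 and 29 for about 20967 and 26065. The wild-type level is thus low but rests on more than a few fragments.

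**Figure D1:**
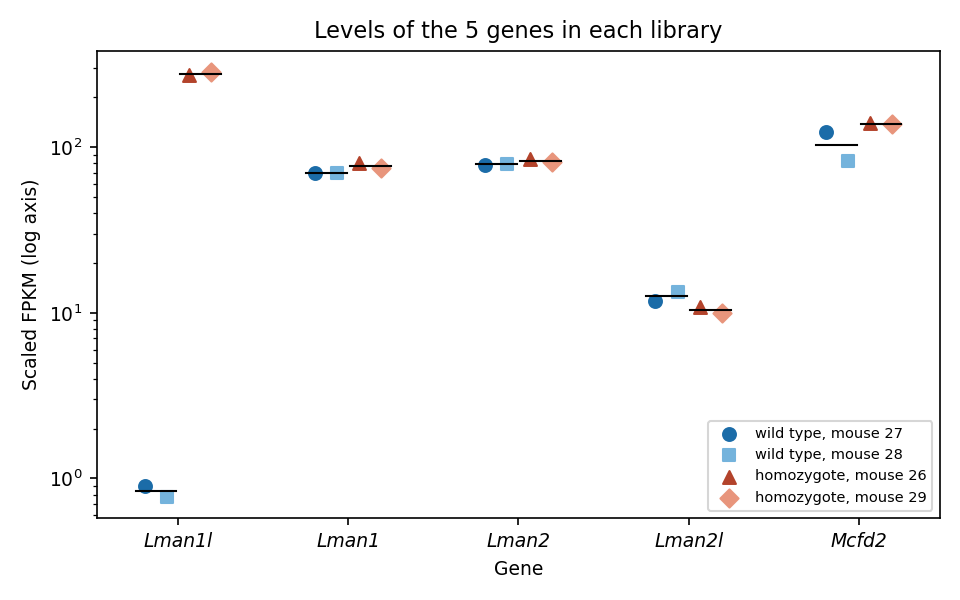
Scaled FPKM (log axis) of the 5 genes in each of the 4 libraries, with symbols for libraries and short lines for the mean of each genotype. Lman1l goes from 0.777 and 0.900 in wild types to 272 and 284 in homozygotes, while the means of the other 4 genes differ by ratios of 0.829 to 1.35.

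Lman1, the receptor after which the family is named, differed little. Lman1 (Entrez 70361, chromosome 18, 65980739 to 66002635) had 69.3 and 70.0 scaled FPKM in wild types against 79.7 and 74.6 in homozygotes. Both homozygotes lay above both wild types, by a ratio of means of 1.11 and a log2 difference of 0.15 (SE 0.110). With quantile normalization the difference was 0.06, and with unscaled FPKM 0.22.

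Lman2, which encodes the cycling lectin VIP36, was the most even of the 5. Lman2 (Entrez 66890, chromosome 13, 55343833 to 55362783) had 78.2 and 79.2 scaled FPKM in wild types against 84.5 and 81.2 in homozygotes. The groups did not overlap, but the ratio of means was 1.05 and the log2 difference 0.07 (SE 0.109). That difference was 0.01 with quantile normalization.

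Lman2l, for the ER lectin VIPL, was the only member with a negative difference. Lman2l (Entrez 214895, chromosome 1, 36423186 to 36445239) had 11.8 and 13.3 scaled FPKM in wild types against 10.9 and 9.91 in homozygotes. Both homozygotes lay just under both wild types, with a ratio of means of 0.829 and a log2 difference of -0.25 (SE 0.115). In unscaled FPKM the values were 10.9 and 13.7 against 11.1 and 10.4, so the groups overlapped.

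Mcfd2, for the calcium-binding partner of LMAN1, varied most between animals of 1 genotype. Mcfd2 (Entrez 193813, chromosome 17, 87254443 to 87265947) had 123 and 82.3 scaled FPKM in wild types against 139 and 138 in homozygotes. The wild types differed from each other by 1.49-fold, and the homozygotes by 1.01-fold. The ratio of means was 1.35 and the log2 difference 0.45 (SE 0.205). It was 0.74 without mouse 27 and 0.17 without mouse 28, so its size rests on which wild type is compared. The authors' deposited table lists Mcfd2 at a log2 fold of 0.54 (q-value 0.0255) and Lman1l at 8.46 (q-value 0). The authors' deposited table gives Lman1, Lman2 and Lman2l log2 folds of 0.20, 0.12 and -0.25, with q-values of 0.625, 0.867 and 0.658.

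Counted over the family in scaled FPKM, the genotypes did not overlap in any of the 5 genes, 4 higher and 1 lower in homozygotes. In unscaled FPKM they overlapped in Lman2l. Over all tested genes 51.1% did not overlap, 25.3% higher and 25.8% lower. Of the 5, Lman1l alone had a log2 difference of at least 1 in size (background 4.34%), and the authors' deposited table lists Lman1l and Mcfd2 with a q-value under 0.05 (background 14.2%). Nothing is read from these counts, since the contrast was known when the family was drawn up. The median log2 difference was 0.15 over the 5 genes and -0.0033 over all tested genes.

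**Figure D2:**
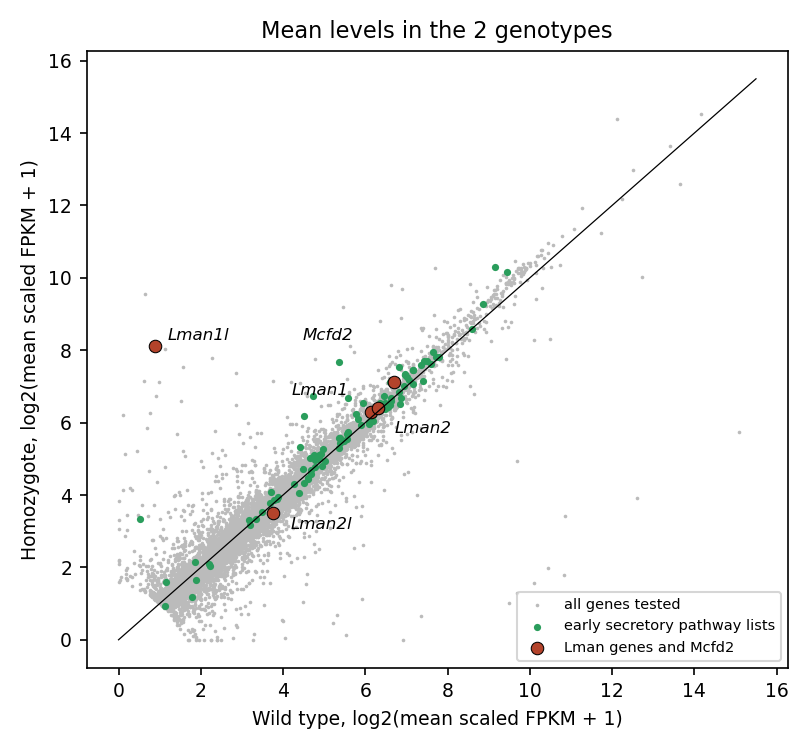
Mean level in homozygotes against wild type, both as log2(mean scaled FPKM + 1), for all 11762 genes tested (grey), the early secretory pathway genes of the lists (green) and the 5 genes (red), with the line of equal levels. Lman1l lies far above the line, and Lman1, Lman2, Lman2l and Mcfd2 lie near it.

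FPKM is per length, so levels of different genes can be set side by side within a library. In both wild types the order was Mcfd2, Lman2, Lman1, Lman2l and Lman1l. Lman2 and Lman1 were neighbours in that order whose gap was small but larger than the spread between animals, 78.7 ± 0.692 against 69.7 ± 0.485 (SD, n = 2 each). Mcfd2, at 103 ± 28.8 (SD, n = 2), and Lman2 did not differ beyond the spread of Mcfd2. In both homozygotes Lman1l came first, then Mcfd2, Lman2, Lman1 and Lman2l, and Lman2 (82.9 ± 2.32, SD, n = 2) and Lman1 (77.2 ± 3.64, SD, n = 2) came close to overlapping.

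Lman1l thus passed from the smallest to the largest part of the summed level of the 4 lectin genes. It made up 0.562% and 0.476% of that sum in the wild types, and 60.8% and 63.2% in the homozygotes. The sum was 160 and 163 scaled FPKM in the wild types and 447 and 450 in the homozygotes. Without Lman1l it was 159 and 162 against 175 and 166, so nearly all of the added level was Lman1l. Relative to Lman1, Lman1l stood at 0.0130 and 0.0111 in the wild types and at 3.41 and 3.81 in the homozygotes. These ratios are within a library and do not depend on the scaling between libraries.

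**Figure D3:**
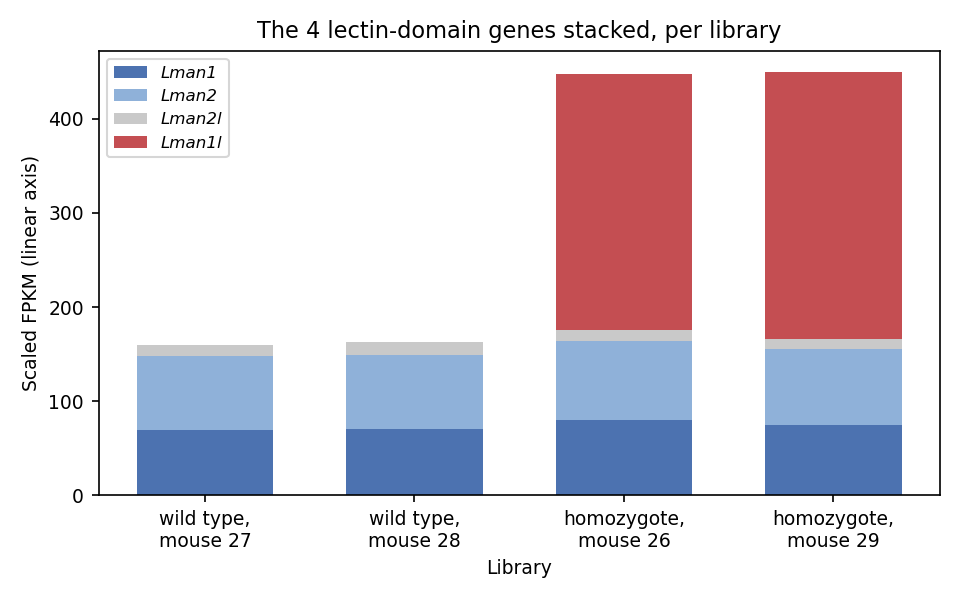
Scaled FPKM (linear axis from 0) of Lman1, Lman2, Lman2l and Lman1l stacked for each library. The stacks reach 160 and 163 in the wild types and 447 and 450 in the homozygotes, and the part below Lman1l keeps nearly the same height, 159 to 175.

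The ratio of the partners, Mcfd2 to Lman1, was 1.77 and 1.18 in the wild types and 1.74 and 1.85 in the homozygotes. Mouse 27 thus had a ratio like that of the homozygotes and mouse 28 a lower ratio. The ratio of the lectins Lman2 and Lman1 was 1.13 in both wild types and 1.06 and 1.09 in the homozygotes, and that of Lman2l to Lman2 was 0.152 and 0.168 against 0.129 and 0.122.

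Reads of a family can be assigned to the wrong member where sequences are alike. Among the annotated transcripts of GENCODE M21 (same build) Lman1l shared 0 stretches of 25 bases with Lman1, Lman2, Lman2l or Mcfd2 on either strand. Lman2 and Lman2l shared 22 such stretches over all their transcripts, and 0 between their coding transcripts of greatest length. None of the 5 rows overlapped another row of the table.

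No difference of that size was seen in the rows beside Lman1l. The nearest row on the low-coordinate side, Cplx3, for a protein of synaptic vesicle release, ends 0.751 kb from Lman1l and was listed at 0 in both wild types and mouse 26 and at 0.0141 scaled FPKM in mouse 29. The nearest on the other side, Csk, for a kinase that restrains Src kinases, begins 5.87 kb away. Csk was at 17.7 and 20.3 in the wild types and 25.9 and 25 in the homozygotes, a log2 difference of 0.40 (SE 0.112, limma adjusted p = 0.106). Of the 10 rows nearest to Lman1l, 5 on each side, 7 were tested, and 0 passed limma in either direction, where 7.65% of all genes did. Without adjustment 2 had p under 0.05, both higher, and the authors' deposited table has 1 of 8 with a q-value under 0.05. The log2 differences of the 7 ran from -0.16 to 0.40.

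**Figure D4:**
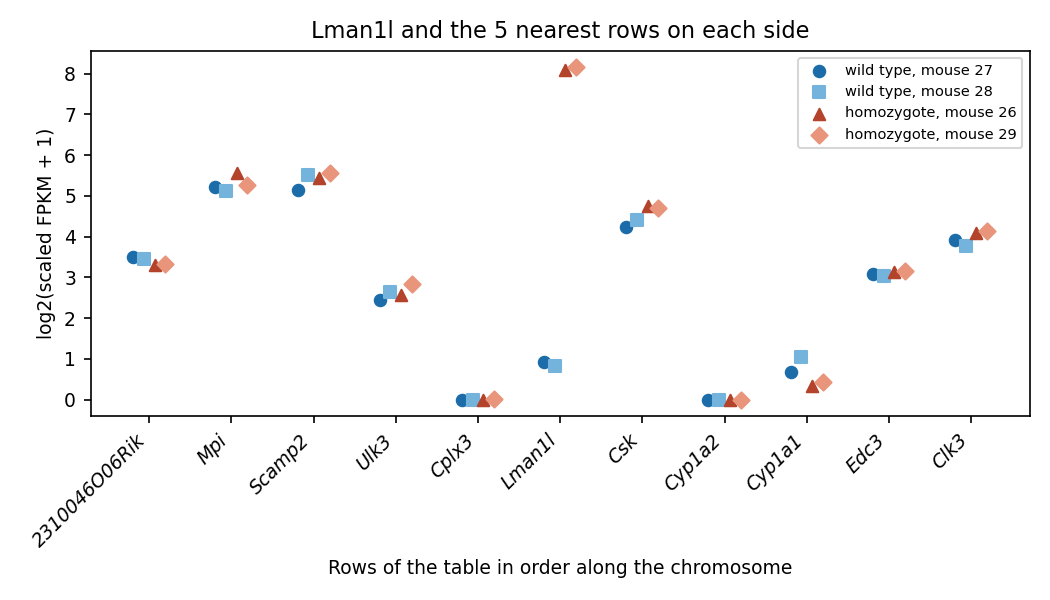
log2(scaled FPKM + 1) of Lman1l and of the 5 nearest rows on each side, in order along the chromosome and not to scale, with symbols for the 4 libraries. At Lman1l the genotypes are 7.25 log2 units apart, and at the 10 neighbours the symbols of all libraries lie much closer together. Cyp1a1, under the filter, was at 0.602 and 1.05 scaled FPKM in the wild types against 0.258 and 0.356 in the homozygotes.

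The rows beside the other members mostly did not pass either. Over the 50 rows nearest to the 5 genes 30 were tested, of which 2 were called higher (background 4.65%) and 1 lower (background 3.00%). Next to Lman2l, Cnnm4, for a magnesium-handling membrane protein, fell from 5.60 and 8.32 in the wild types to 2.86 and 2.68 scaled FPKM in the homozygotes (log2 difference -1.06, SE 0.183, limma adjusted p = 0.0284), and the row on its other side, 4632411B12Rik, had -0.15 (SE 0.114). In the region of Mcfd2, Calm2, for the calcium sensor calmodulin, rose from 225 and 195 to 395 and 377 (0.88, SE 0.150, limma adjusted p = 0.0278). Epcam, for an epithelial adhesion protein, rose from 263 and 245 to 442 and 437 (0.79, SE 0.145, limma adjusted p = 0.0328). They lie 167 and 370 kb from Mcfd2, and the rows that adjoin it, C330024C12Rik and 4833418N02Rik, were under the filter. Ccbe1 beside Lman1 had 0.24 (SE 0.123), and Cplx4 on its other side and both rows beside Lman2, Mxd3 and Rgs14, were under the filter. The calls of Cnnm4, Calm2 and Epcam were lost without mouse 26 and without mouse 29, that of Epcam also without mouse 28, and that of Cnnm4 also with unscaled FPKM. All 3 were lost with no filter on low values.

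The genes whose profile over the 4 libraries came closest to that of Lman1l lie elsewhere in the genome. Closeness was the Euclidean distance between log2(scaled FPKM + 1) profiles, each set to 0 at its wild-type mean. The 5 nearest were Serpinb11 (0.54), Gm5325 (1.04), Otos (1.61), Abpd (1.87) and Tpsab1 (2.07), on chromosomes 1, 7, 1, 7 and 17. Serpinb11, of the family of serine protease inhibitors, had 1.31 and 1.04 scaled FPKM in wild types against 291 and 234 in homozygotes. Otos, known from the inner ear, was at 0.137 and 0.0233 against 69.8 and 77.7. Tpsab1, a mast cell tryptase gene, was at 0.789 and 0.978 against 120 and 91.1. All 5 were low in both wild types and high in both homozygotes. Their rise in both homozygotes follows from the choice by closeness to Lman1l and is no further result. Gm5325, Otos and Tpsab1 were under 1 in both wild types, so they passed the filter on low values only through the homozygotes.

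Of the genes for the coats and tethers that move LMAN proteins, none of those tested was called. At a background of 7.65%, this is near the share over all genes for each list of 13 or 14 genes taken alone. The 3 lists were not compared with the background together. In the COPII coat and exit site list, whose proteins form the vesicles that leave the ER, 0 of 13 tested genes passed limma in either direction, and 0 had an unadjusted p under 0.05. Their log2 differences ran from -0.17 to 0.22, with a median of -0.02, against -0.0033 over all tested genes. The largest statistics were those of the cargo-binding coat subunit gene Sec24d, at 38.1 and 41.9 in the wild types and 46.6 and 46.8 in the homozygotes (0.22, SE 0.108), and of Preb, which activates the coat GTPase (-0.15, SE 0.101). In the COPI coat list, for the vesicles that return receptors such as LMAN1 to the ER, 0 of 14 passed, 0 had an unadjusted p under 0.05, and the median was -0.02. Arfgap3 had 0.19 (SE 0.109) and the coat subunit gene Copz2 -0.23 (SE 0.137). Among genes for tethering and fusion of these vesicles 0 of 13 passed, with 2 lower at an unadjusted p under 0.05 and a median of 0.06. These were Gorasp1, for a Golgi stacking protein (20.1 and 20 against 16.2 and 15, -0.34, SE 0.102), and the tether gene Uso1 (114 and 111 against 93.5 and 87.3, -0.32, SE 0.115). In the authors' deposited table no gene of these 3 lists has a q-value under 0.05. Preb, Copz2 and Gorasp1 overlap another row, so their reads may be shared.

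Other cargo and retrieval receptors included 2 rises among 24 tested genes and no fall (background 4.65% higher and 3.00% lower), with 3 higher and 0 lower at an unadjusted p under 0.05. Tmed3, of the p24 family of cargo receptors, had 638 and 495 scaled FPKM in wild types against 1344 and 1185 in homozygotes (log2 difference 1.16, SE 0.218, limma adjusted p = 0.0351). Ergic3, for a protein of the intermediate compartment, was at 117 and 107 against 199 and 168 (0.70, SE 0.144, limma adjusted p = 0.0459). In both genes every homozygote exceeded every wild type, as in 7 of the 24 tested genes of the list and 25.3% of all tested genes. The other members ranged from -0.62 for Tmed6 to 0.35, and the list median was 0.12. Surf4, the receptor for several secreted proteins that also works at ER exit, was at 222 and 217 against 232 and 213 (0.01, SE 0.134). The KDEL receptor genes Kdelr1, Kdelr2 and Kdelr3, which return ER residents, had 0.30, 0.04 and 0.20 and did not pass. Surf4 and Kdelr3 overlap another row.

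In the list of ER folding lectins and glycan trimming, whose proteins act on glycoproteins in the ER, 1 of 16 tested genes rose and 0 fell, near the background of 4.65% higher and 3.00% lower. Edem1, for a lectin that directs misfolded glycoproteins to degradation, went from 44.1 and 49.5 scaled FPKM in the wild types to 112 and 92.6 in the homozygotes (1.11, SE 0.141, limma adjusted p = 0.0107). The list median was 0.33, with 13 of 16 above 0, where 49.4% of all tested genes were. At an unadjusted p under 0.05 there were 8 higher and 0 lower (background 11.0% and 10%). Calr, for the ER lectin calreticulin, had 732 and 672 against 1272 and 1030 (0.71, SE 0.209, limma adjusted p = 0.124), and Canx, for its membrane relative calnexin, 0.25 (SE 0.139). The genotypes did not overlap in 13 of the 16 genes, 11 higher and 2 lower, where 25.3% and 25.8% of all tested genes did not overlap in those directions.

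**Figure D5:**
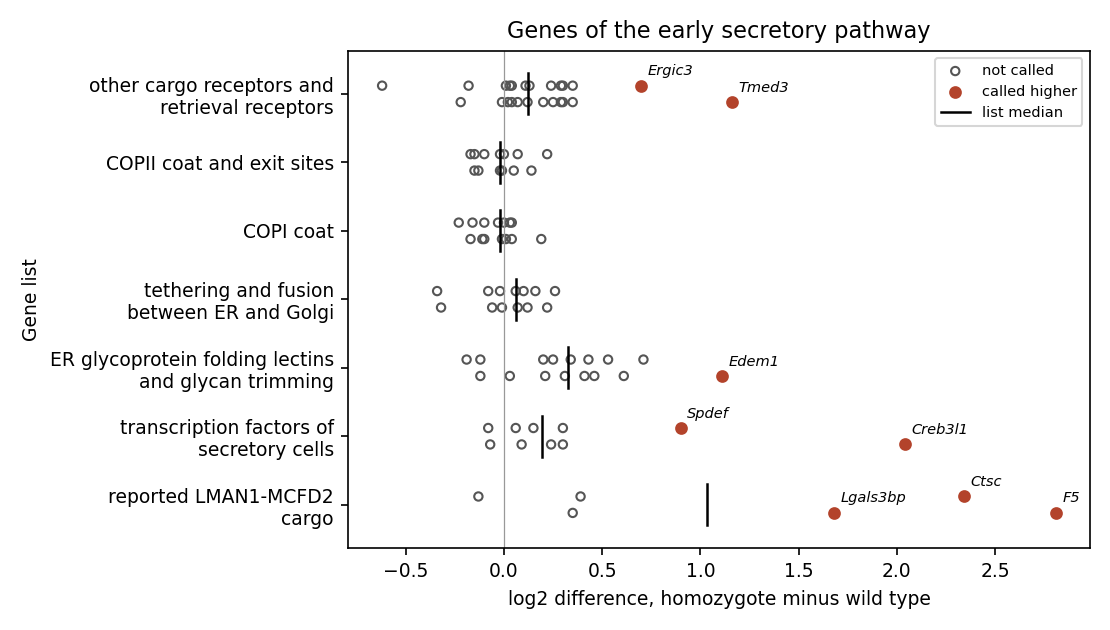
Log2 difference (homozygote minus wild type) of each tested gene of the 7 early secretory pathway lists, 1 list per line, with calls by limma as filled symbols and the median of each list as a black bar. All 8 filled symbols lie to the right of 0, and the COPII and COPI genes lie between -0.23 and 0.22.

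Transcription factors of secretory cells held 2 rises among 10 tested genes and no fall (background 4.65% and 3.00%). Creb3l1, an ER membrane-bound factor that is cut and released to drive genes of secretion, had 19.1 and 31.7 scaled FPKM in wild types against 103 and 106 in homozygotes (2.04, SE 0.232, limma adjusted p = 0.00740). Spdef, an ETS factor of glandular epithelium, was at 20.1 and 20.7 against 40.7 and 37.0 (0.90, SE 0.106, limma adjusted p = 0.00848). Xbp1, the main factor of the unfolded protein response, had 0.30 (SE 0.128), and Atf4 0.06 (SE 0.226). At an unadjusted p under 0.05 the counts were 2 higher and 0 lower (background 11.0% and 10%).

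Of 12 genes whose human products are reported cargo of LMAN1, alone or with MCFD2, 6 were tested, and 3 of these rose and 0 fell (background 4.65% higher). F5, for coagulation factor V, had 0.349 and 0.504 scaled FPKM in wild types against 10.5 and 7.68 in homozygotes (2.81, SE 0.171, limma adjusted p = 9.86e-04). F5 passed the filter only through the homozygotes, so it had to differ to be tested, and it overlaps another row of the table. Without it 2 of 5 tested genes of the list rose. Ctsc, for cathepsin C, which activates granule proteases of immune cells, was at 46.4 and 33.4 against 228 and 182 (2.34, SE 0.20, limma adjusted p = 0.00279). Lgals3bp, for a secreted galectin-binding glycoprotein, was at 22.5 and 20.7 against 77.0 and 65.7 (1.68, SE 0.125, limma adjusted p = 0.00177). Sumf1 (0.39, SE 0.104), Ctsz (0.35, SE 0.10) and Mmp9 (-0.13, SE 0.135) did not pass, and Ctsz also overlaps another row. F8, for factor VIII, lay between 0.316 and 0.386 in all libraries, and it and the 5 Serpina1 genes were under the filter. At an unadjusted p under 0.05 there were 5 higher and 0 lower, F5 included (background 11.0% and 10%).

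Over all 7 lists 8 of 96 tested genes were called higher and 0 lower, with 18 higher and 2 lower at an unadjusted p under 0.05, and a median log2 difference of 0.07. Over all tested genes 4.65% were called higher and 3.00% lower, and 11.0% and 10% had an unadjusted p under 0.05. With genes left out whose mean was under 1 in either genotype, F5 among them, 7 of 94 were called higher. The authors' deposited table has 11 of 101 with a q-value under 0.05, all higher (background 7.04% higher and 7.10% lower). Without a filter on low values none of the 8 calls held (limma adjusted p from 0.0738 to 0.251, and from 1.39e-05 to 0.407 over all settings). Without mouse 26 the calls of Tmed3, Ergic3, Edem1 and Spdef were lost, without mouse 29 those of Tmed3 and Ergic3, and without mouse 28 that of Tmed3. Without mouse 27, 13 were higher and 1, Tmed6, was lower.

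Markers of other cells also differed between the libraries. All 5 mast cell genes examined were called higher (background 4.65%), of which Tpsab1 passed the filter only through the homozygotes. Their summed level was 9.37 and 11.4 scaled FPKM in the wild types and 292 and 226 in the homozygotes (log2 differences 2.89 to 5.81). None of the 5 was at 0 in any library. Of 7 tested seminal vesicle genes 5 fell (background 3.00%) and all 7 had negative differences. Their spread between the wild types was wide, as for Svs1, with the largest fall, at 3421 and 236 in the wild types against 3.83 and 1.05 in the homozygotes. Of the 10 genes listed, 3 had a missing value and were not tested. Not all were low in the homozygotes. Pate4, not called, was at 15870 and 9904 against 4318 and 8148. Svs5, not tested, was at 20315 in mouse 28 against 6311 and 11693. The 5 smooth muscle genes summed to 2310 and 1633 against 1149 and 1342, and 0 passed, with 4 lower at an unadjusted p under 0.05 (background 10%). Of 4 proximal luminal genes Ly6a rose and Psca and Krt4 fell (background 4.65% higher and 3.00% lower). Basal, urothelial, macrophage, plasma cell, endothelial and neuroendocrine lists had 0 calls by limma among 3, 4, 3, 3, 3 and 2 tested genes. Without adjustment, 1 basal and 1 macrophage gene had p under 0.05 on the higher side (background 11.0%). On the lower side 1 plasma cell and 1 endothelial gene did (background 10%). The authors' deposited table has 3 of 4 urothelial and 2 of 3 neuroendocrine genes lower with a q-value under 0.05 (background 7.10%). In it 0 genes of the other 4 lists pass (background 14.2% in either direction). The wild types differed widely in some of the genes listed lower, as for Upk3a at 1.91 and 51.7 scaled FPKM in mice 27 and 28. Syp was at 1.26 and 6.30 in the same mice. Of the 4 epididymis genes only Crisp1 was tested (-0.34, not called), and Lcn8 was at 0 in mice 28, 26 and 29. Adam7, under the filter, was at 1.84 and 1.01 in the wild types against 0.0197 and 0.155 in the homozygotes. Of 2 epididymis genes with a q-value in the authors' deposited table, 1 was lower with a q-value under 0.05 (background 7.10%). Among prostate genes Msmb, for a secreted prostate protein, was at 4240 and 4729 against 28100 and 14924 and did not pass (2.19), nor did the other 6 tested of 8. In all 2 prostate genes had an unadjusted p under 0.05, both higher (background 11.0%). These levels move with Lman1l across the libraries, and their part in its difference was not tested.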

How the data were processed

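RNA-seq of prostate lobes from 4 mice was analysed from 1 deposited table. Its values were read as FPKM, made by the authors, because no header states a unit. TopHat 1.3, Cufflinks 1.3 and build mm10 are listed in the submitters' processing notes. Their roles and settings, the annotation and any use of strand are stated in no source used here. The deposited table also holds the authors' log2 fold, a score that includes codes for infinity, with a p-value and q-value, per the file headers. The value 99999, found in 7 genes, was treated as missing, and starts were raised by 1 to count from 1.

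FPKM was divided by median-of-ratios factors (0.921, 1.03, 1.01 and 1.04 for mice 27, 28, 26 and 29) over genes with at least 1 FPKM in every library. Genes whose scaled FPKM averaged 1 or more were fitted as log2(scaled FPKM + 1) with limma 3.58.1 in R 4.3.3 (trend, two-sided, Benjamini-Hochberg adjustment over 11762 genes, threshold 0.05), and tested on simulated data. FPKM are not counts, so no count test was run. Fragment numbers were estimated from the lowest values in bins of 0.2 on the log2 scale and are approximate. A fold on this scale understates the change of low genes. Groups came from the sample titles. Alternatives replaced the scaling by none or by quantiles, the pseudocount by 0.1, the filter by none or a mean of 5, and the trend by none or a robust one. Others kept 99999 as a value, dropped overlapping rows, or dropped each library in turn.

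The members, the pathway and marker lists, the motifs and the rules were chosen with earlier results of these data known. Named pathway genes were those called, up to 4 per list, or the 2 with the largest statistic where none was. Neighbours were the adjoining rows and any called, and like genes the 5 at the smallest distance. Others were chosen after their values were seen.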

Additional observations from a re-analysis of the deposited data

How the results depend on the processing

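The log2 difference of Lman1l was positive under all 13 alternatives and moved beyond the spread between replicates only with a pseudocount of 0.1 (8.21). It ran from 7.20 to 7.30 with a library left out. Lman1, Lman2 and Mcfd2 stayed above 0 and Lman2l below 0 under all 13, over 0.06 to 0.22, 0.01 to 0.15, 0.17 to 0.74 and -0.33 to -0.17. Counts of calls moved more. Over all genes the 900 calls (547 higher, 353 lower) became 126 (90 and 36) with no filter on low values and 2034 (1012 and 1020, and 2 with no direction) in the authors' deposited table. The lower calls became 185 with unscaled FPKM and 231 at a minimum mean of 5. With a library left out the calls ran from 384 to 2062 (228 to 1042 higher, 156 to 1049 lower). The 8 pathway rises became 0 with no filter and ran from 4 to 13 with a library left out, and the 0 falls from 0 to 1. The 2 neighbours called higher became 0 with no filter and ran from 0 to 4 with a library left out. The 1 called lower became 0 with no filter, with unscaled FPKM and at a minimum mean of 5, and ran from 0 to 1. The cause was not tested. Where 1 mouse of a genotype remained, it was assumed to vary as much as the other genotype did. No paired analysis was possible because the genotypes share no mouse number. The wild-type level of Lman1l, with an estimated 61 and 63 fragments, limits the precision of its ratio.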
